A study of Rattus norvegicus with 6 samples.

Results

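Messenger RNA levels of 10 genes of eicosanoid metabolism were described on 6 Affymetrix Rat Gene 2.0 ST arrays of diabetic rats. The genes were 2 epoxide hydrolases (Ephx1 and Ephx2), 2 cyclooxygenases (Ptgs1 and Ptgs2), 3 prostanoid synthases (Ptgis, Ptges and Ptgds), the prostaglandin-inactivating dehydrogenase Hpgd, and 2 lipoxygenases (Alox5 and Alox15). They were chosen by name among the 18166 genes that a probe set with a single symbol represents, and each of the 10 had 1 such probe set. The Hlirag and the diabetic group had 3 arrays each, and values are given in the order of replicates 1 to 3. Both groups were male Sprague–Dawley rats that started at 5 weeks of age, ate a high-fat diet for 4 weeks and were then injected with 30 mg/kg of streptozotocin, which destroys beta cells. For 12 weeks the diabetic rats were given saline and the Hlirag rats liraglutide, which activates the receptor of the gut hormone GLP-1. The labels say only that liraglutide was given, and the dose of 0.4 mg/kg/day is that of the Hlirag group in the methods. The labels state an age of 17 weeks for both groups, less than the starting age, diet and treatment times of the methods together. They do not tie arrays to individual animals, so p-values rest on the spread among arrays, part of which may be technical.

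Eicosanoids are signalling lipids made mainly from arachidonic acid, a fatty acid that phospholipases free from membranes. Cyclooxygenases turn it into the precursor of the prostaglandins, prostacyclin and thromboxane, lipoxygenases start the leukotriene and hydroxy acid branches, and cytochrome P450 epoxygenases make epoxy fatty acids. In blood vessels prostacyclin relaxes smooth muscle and restrains platelets, and epoxy fatty acids widen arteries until soluble epoxide hydrolase, the product of Ephx2, converts them to diols. Hydroxyprostaglandin dehydrogenase, the product of Hpgd, oxidizes prostaglandins after their uptake into cells and so ends their action.

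Values are deposited log2 signals, with the log2 fold change taken as Hlirag minus diabetic. A gene met the study's criterion when its fold change exceeded 1.5 and its unadjusted p, here that of limma, was under 0.05. The background level was 5.6, the 95th percentile of 67 olfactory receptor genes, and 47.4% of genes had a mean below it. Hlirag replicate 3 had a narrower spread over genes (SD 1.52) than the other 5 arrays (SD 1.84 to 1.98). The labels name cardiac muscle as the tissue, but the sample titles begin with arota and the free-text descriptions speak of adipose. The ventricular markers Myh6 and Tnnt2, both sarcomere genes, lay at 7.88 or more on Hlirag replicate 1 and diabetic replicate 1 and at 4.91 or less on the other 4 arrays. Tnni3 was likewise at 7.82 on Hlirag replicate 1 and 9.09 on diabetic replicate 1, against 4.64 to 5.73 elsewhere. Mybpc3 (5.47 and 6.46) and Ryr2 (6.98 and 7.22) were also highest on these arrays, in that order. Myl3 was highest on diabetic replicates 1 and 2 (7.52 and 10.20). Pln and Nppb followed other patterns. Pln lay at 7.18 to 10.13 and Nppb at 5.96 to 7.03 over all arrays. Nppa (4.45 to 4.89) and Nkx2-5 (5.21 to 5.41) lay below the background level on every array. Of the 10 measured, 6, 3 and 3 exceeded background on the Hlirag arrays and 8, 4 and 3 on the diabetic arrays. All 7 fat cell markers lay above the background level on every array, as did all 6 smooth muscle markers. Of 5 brown fat cell markers, 2 were higher in Hlirag at the criterion and none lower. The median of 6 skeletal muscle markers was 11.19 and 12.02 on diabetic replicates 1 and 2 and 5.09 to 5.25 on the other 4 arrays. In such tissue RNA, fewer cells of a type and less RNA per cell cannot be told apart.

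Ephx2 and Hpgd met the criterion with lower levels in Hlirag, and no other enzyme of the 10 met it. Over all genes 3.78% met it, 2.16% lower (393 genes) and 1.62% higher (294 genes), a split that turned to 316 lower and 383 higher with quantile normalization and to 340 and 410 with median centring. Ephx2 and Hpgd also met it by the test that the study's methods name, which called 1.3% of all genes (0.49% lower). The median log2 fold change of the 10 genes was 0.05, against 0.00 over all genes, with 7 above 0 and 3 below. No gene of the 18166 had an adjusted p under 0.05 by either test; before adjustment 752 genes (4.14%) passed 0.05 by limma and 690 (3.8%) by the methods' test. The smallest two-sided p that an exact permutation of 3 arrays against 3 can give is 0.1.

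**Figure D1:**
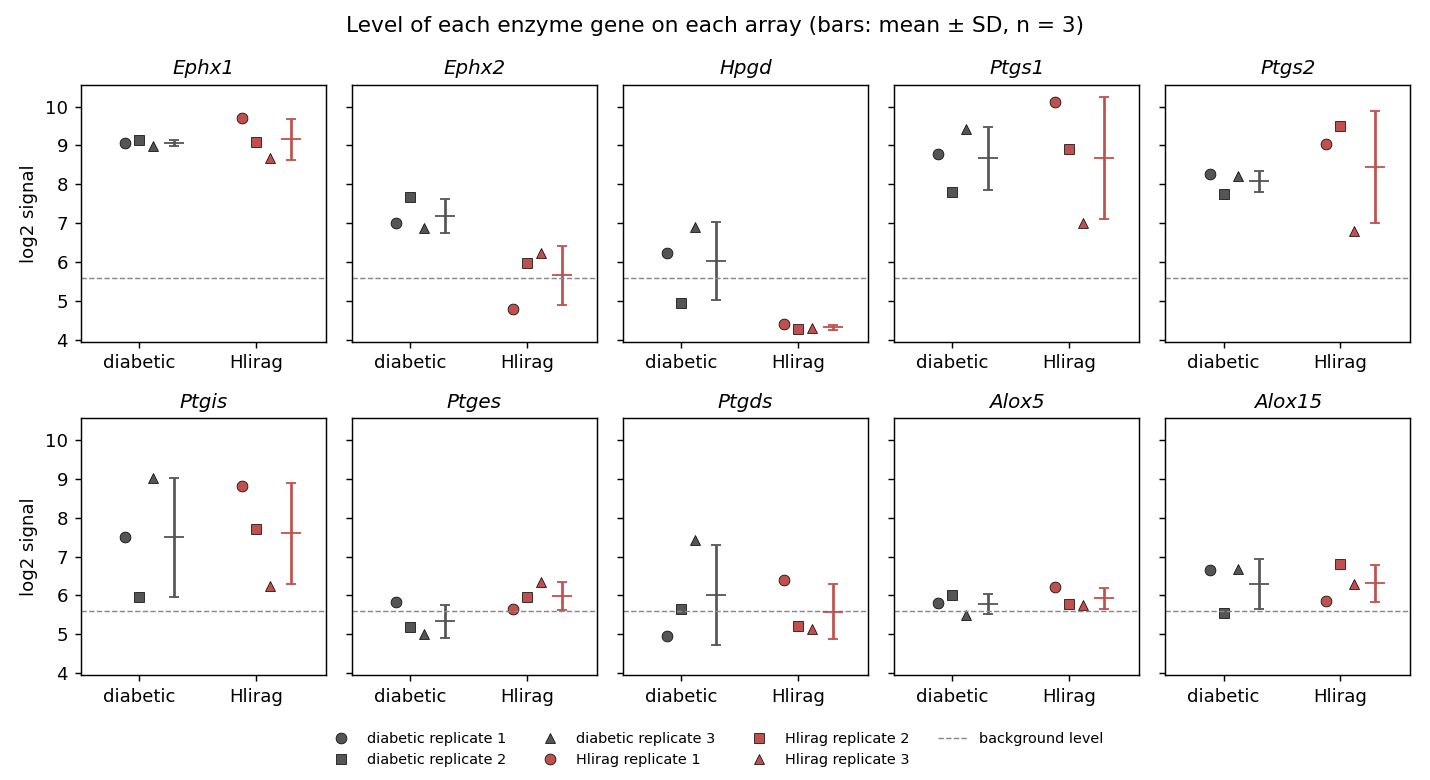
Log2 signal (vertical axis) of each of the 10 genes on the 3 diabetic and 3 Hlirag arrays, with symbols for the replicates, bars for the mean ± SD (n = 3) and a dashed line at the background level of 5.6. The groups do not overlap for Ephx2 and Hpgd, and Hpgd lay below the line on all 3 Hlirag arrays.

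Of the epoxide hydrolases, Ephx2 was lower in Hlirag at the criterion and Ephx1 did not meet it. Ephx2 had log2 levels of 4.79, 5.96 and 6.22 on the Hlirag arrays and of 7.0, 7.67 and 6.87 on the diabetic arrays. Every Hlirag array thus lay under every diabetic array, and Hlirag replicate 1 lay below the background level. The mean was 5.66 ± 0.76 (SD, n = 3) in Hlirag and 7.18 ± 0.43 (SD, n = 3) in diabetic, a log2 fold change of -1.52 (SE 0.42, 95% interval -2.49 to -0.56), or 2.87-fold lower. The unadjusted p was 0.00691 and the adjusted p 0.780 by limma, and the exact permutation test gave its smallest value, 0.1. By size, 98.9% of all genes had a smaller log2 fold change in either direction.

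The Ephx2 difference was present with each array left out. It ranged from -1.80 without Hlirag replicate 3 to -1.09 without Hlirag replicate 1, each time at the criterion. Over the 6 arrays Ephx2 had a Pearson r of 0.71 with the median of skeletal muscle markers and of -0.63 with that of fibroblast markers. With the other marker lists its r lay between -0.41 and 0.30. Skeletal muscle markers were high on diabetic replicates 1 and 2, where Ephx2 had its highest levels, 7.0 and 7.67. Without both of these arrays the log2 fold change of Ephx2 was -1.21 (SE 0.63), which missed the criterion (unadjusted p = 0.0986 by limma), with the remaining diabetic array at 6.87 still above all Hlirag arrays. That fit takes the lone diabetic array to vary like the Hlirag arrays, and the part of skeletal muscle RNA was not tested beyond it.

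Of the 5 brown fat cell markers, Ucp1 and Cidea were higher in Hlirag at the criterion, both with overlapping groups. Ucp1, the uncoupling protein of brown fat, had log2 levels of 10.75, 12.75 and 12.03 on the Hlirag arrays and of 10.92, 7.35 and 7.05 on the diabetic arrays, a log2 fold change of 3.40 (SE 1.01, unadjusted p = 0.0107 and adjusted p = 0.780 by limma). Cidea, a lipid droplet protein, had a log2 fold change of 0.72 (SE 0.29, unadjusted p = 0.0393 by limma). Ppargc1a (-0.10), Dio2 (0.39) and Elovl3 (0.67) did not meet the criterion. The summed signal of the 5 markers ranged from 12.93 to 13.87 in Hlirag and from 11.86 to 13.07 in diabetic, as log2. The median of the 5 was 7.62, 8.64 and 7.59 on the Hlirag arrays and 9.13, 7.35 and 7.05 on the diabetic arrays. Diabetic replicate 1 had a Ucp1 level near that of Hlirag replicate 1, and on it Ephx2 was at 7.0 and Hpgd at 6.23, above all Hlirag arrays. The part of brown fat RNA in the Ephx2 and Hpgd differences was not tested.

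Ephx1, the microsomal epoxide hydrolase that detoxifies foreign epoxides, was bright on every array. Its log2 levels were 9.72, 9.08 and 8.67 on the Hlirag arrays and 9.07, 9.15 and 9.0 on the diabetic arrays. The Hlirag arrays lay on both sides of the diabetic ones, and the log2 fold change was 0.08 (SE 0.30, 95% interval -0.61 to 0.77, adjusted p = 0.926 by limma). Whether the differences of Ephx1 and Ephx2 themselves differ was not tested. Both other epoxide hydrolase genes, Ephx3 and Ephx4, had means below the background level and did not meet the criterion.

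Hpgd was lower in Hlirag, where it was not above background. Its log2 levels were 4.39, 4.26 and 4.30 on the Hlirag arrays (SD 0.07) and 6.23, 4.93 and 6.91 on the diabetic arrays. Diabetic replicates 1 and 3 lay above the background level and diabetic replicate 2 below it, while the groups did not overlap. The log2 fold change on the deposited values was -1.71 (SE 0.46, 95% interval -2.79 to -0.63, unadjusted p = 0.00675 and adjusted p = 0.780 by limma). Because every Hlirag array lay below the background level, the size of the difference is uncertain. The diabetic mean of 6.03, which includes replicate 2 below the background level, was 1.34-fold above that level. Raising all dimmer values to that level, Hpgd missed the criterion (log2 fold change -0.65, unadjusted p = 0.143 by limma).

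On the deposited values the Hpgd log2 fold change ranged from -2.25 without diabetic replicate 2 to -1.27 without diabetic replicate 3. With dim values raised to the background level, an alternative added after seeing the data, it ranged from -0.97 to -0.32 over the same 6 omissions and met the criterion in 1 of them, without diabetic replicate 2 (unadjusted p = 0.0217 by limma). Diabetic replicate 3, the diabetic array without high skeletal muscle markers, had the highest Hpgd level, 6.91. Over the 6 arrays Hpgd had a Pearson r of 0.25 with the median of these markers. With all marker lists its r lay between -0.27 and 0.53. The part of skeletal muscle RNA in the Hpgd difference was not tested. Of the 10 genes, Ephx2 and Hpgd were those whose groups did not overlap, against 11.1% of all genes in either direction and 4.69% with Hlirag lower.

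**Figure D2:**
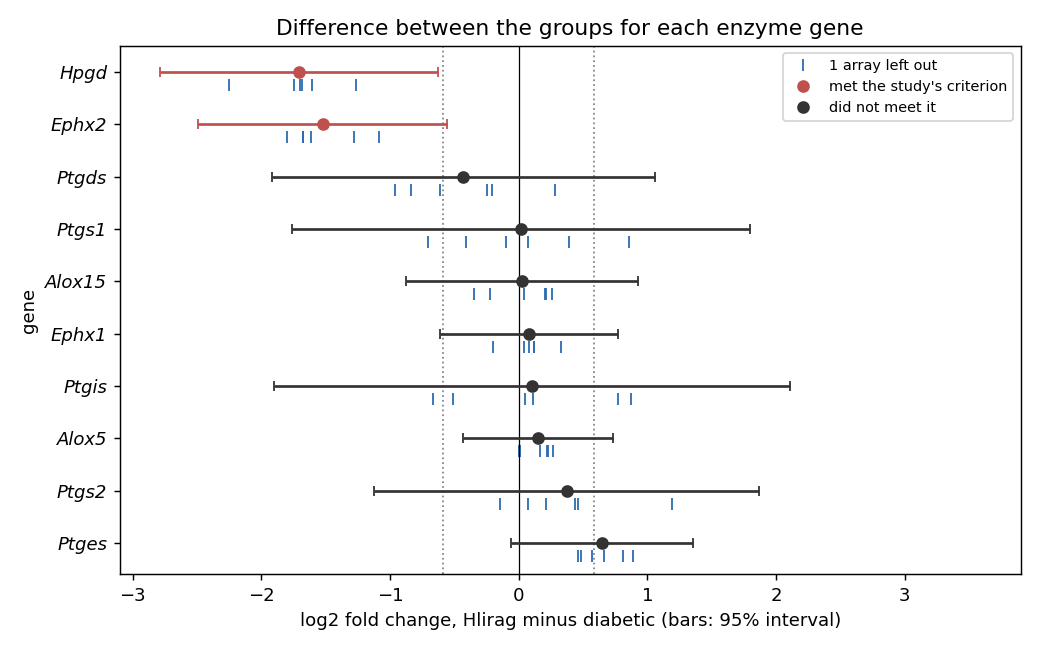
Log2 fold change, Hlirag minus diabetic (horizontal axis), of each of the 10 genes with its 95% interval from limma, blue ticks for the value with 1 array left out and dotted lines at a fold change of 1.5. On the deposited values Ephx2 and Hpgd stayed under the lower dotted line with each array left out, although the Hlirag values of Hpgd lay below background, and the ticks of Ephx1, Ptgs1, Ptgs2, Ptgis, Ptgds, Alox5 and Alox15 fell on both sides of 0.

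The cyclooxygenases did not differ between the groups beyond the spread of the arrays. Ptgs1, the constitutive form, had log2 levels of 10.13, 8.91 and 7.01 on the Hlirag arrays and of 8.78, 7.80 and 9.41 on the diabetic arrays. Hlirag held both its highest and its lowest array, 3.12 apart on the log2 scale. The log2 fold change was 0.02 (SE 0.77, 95% interval -1.76 to 1.80, adjusted p = 0.994 by limma), so that a difference of the size seen for Ephx2 was not detectable at this spread. Its sign turned when Hlirag replicate 1 (-0.71), replicate 2 of Hlirag (-0.10) or replicate 2 of diabetic (-0.41) was left out.

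Ptgs2, the form induced by inflammation and growth signals, had log2 levels of 9.05, 9.49 and 6.81 on the Hlirag arrays and of 8.25, 7.76 and 8.21 on the diabetic arrays. Hlirag replicates 1 and 2 lay above all diabetic arrays and Hlirag replicate 3 lay below them. The log2 fold change was 0.37 (SE 0.64, 95% interval -1.12 to 1.87, adjusted p = 0.844 by limma). Without Hlirag replicate 3 it was 1.19 and met the criterion (unadjusted p = 0.00284 and adjusted p = 0.997 by limma), and without Hlirag replicate 2 it was -0.15. A single array therefore decided the call of Ptgs2.

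The synthases downstream of the cyclooxygenases showed no difference at the criterion either. Ptgis, prostacyclin synthase, which vessel walls express, had log2 levels of 8.83, 7.71 and 6.25 on the Hlirag arrays and of 7.50, 5.95 and 9.02 on the diabetic arrays. The groups covered almost the same range, and the log2 fold change was 0.10 (SE 0.86, 95% interval -1.90 to 2.11, adjusted p = 0.969 by limma). It turned to -0.51 without Hlirag replicate 1 and to -0.67 without diabetic replicate 2.

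Ptges, the microsomal prostaglandin E synthase that is induced together with Ptgs2 in inflammation, had the largest log2 fold change above 0 of the 10 genes. Its log2 levels were 5.64, 5.95 and 6.35 on the Hlirag arrays and 5.82, 5.18 and 5.01 on the diabetic arrays. The groups overlapped through diabetic replicate 1, and the diabetic mean of 5.34 lay below the background level. The log2 fold change of 0.64 (SE 0.30, 95% interval -0.06 to 1.35) missed the criterion (unadjusted p = 0.0684, adjusted p = 0.780 by limma). It met the criterion without Hlirag replicate 1 (0.81) and without diabetic replicate 1 (0.89). With any other array left out it missed the criterion, and was smallest without Hlirag replicate 3 (0.46) and without diabetic replicate 3 (0.48). Raising dimmer values to the background level left 0.31. Hlirag replicate 3, its highest array, also had the highest median of olfactory receptor genes, 4.45. The part of this higher background in the Ptges difference was not tested.

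Ptgds, the lipocalin-type prostaglandin D synthase, had log2 levels of 6.39, 5.22 and 5.14 on the Hlirag arrays and of 4.96, 5.65 and 7.43 on the diabetic arrays. Diabetic replicate 3 stood highest, and 3 of the 6 arrays lay below the background level. The log2 fold change was -0.43 (SE 0.64, 95% interval -1.92 to 1.06, adjusted p = 0.826 by limma), and without diabetic replicate 3 it was 0.28. Without diabetic replicates 1 and 2 it was -1.85 and met the criterion (unadjusted p = 0.0198 by limma), a comparison in which diabetic replicate 3 alone stands for its group.

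The lipoxygenases, which leukocytes express, lay near the background level. Alox5, which opens leukotriene synthesis, had log2 levels of 6.22, 5.78 and 5.76 on the Hlirag arrays and of 5.81, 6.01 and 5.50 on the diabetic arrays. It varied little, since 22.4% of all genes had a smaller SD over the 6 arrays, and its log2 fold change was 0.15 (SE 0.25, 95% interval -0.43 to 0.73, adjusted p = 0.840 by limma). Alox15, which makes hydroperoxy fatty acids in leukocytes, had log2 levels of 5.86, 6.81 and 6.29 on the Hlirag arrays and of 6.66, 5.55 and 6.67 on the diabetic arrays. Its groups overlapped over almost their whole range, with a log2 fold change of 0.03 (SE 0.39, 95% interval -0.88 to 0.93, adjusted p = 0.984 by limma).

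Ptgs1, Ptgs2, Ptgis and Ptgds varied between arrays of the same group more than most genes did. Of the genes with a mean above the background level, 98.1%, 96.3%, 98.7% and 96.2%, in that order, had a smaller SD within the groups. Ptgs1 and Ptgis were high and low on the same arrays, with a Pearson r of 0.92 over the 6 arrays. This r is a description of arrays that differ in group and in cell type marker levels. Relative to its own mean over the arrays, Ptgs1 stood at 1.46 on Hlirag replicate 1 and at -1.67 on Hlirag replicate 3, on the log2 scale. The genes most like Ptgs1 among 6551 genes compared were Sil1, Dlg3 and S100a4 (r = 0.996, 0.995 and 0.994), those most like Ptgis were Ltbp3, Adarb1 and Col4a5 (r = 0.997, 0.996 and 0.996), and 703 and 346 genes had an r above 0.9 with Ptgs1 and Ptgis.

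Markers of several cell types moved with Ptgs1, Ptgs2 and Ptgis, to differing degrees. Over the 6 arrays their r, in that order, was 0.95, 0.88 and 0.90 with the median of fibroblast markers, 0.94, 0.67 and 0.85 with smooth muscle, 0.81, 0.67 and 0.54 with macrophage, 0.70, 0.78 and 0.36 with endothelial and 0.61, 0.69 and 0.32 with mast cell markers. In the same order, r was 0.56, 0.19 and 0.74 with mesothelial markers and -0.66, -0.77 and -0.74 with neutrophil and eosinophil markers. With ventricular, skeletal muscle, fat cell and brown fat cell markers it lay between -0.52 and 0.43. Ptgds had an r of 0.52 with smooth muscle, 0.38 with fibroblast and 0.92 with mesothelial markers. Ephx1 had its highest r with macrophage (0.94) and endothelial (0.88) markers. The median of the 6 smooth muscle markers was 10.37, 9.34 and 8.07 on the Hlirag arrays and 10.10, 8.92 and 10.17 on the diabetic arrays, lowest on Hlirag replicate 3 and next lowest on diabetic replicate 2, as for Ptgs1. Their summed signal ranged from 11.77 to 13.80 in Hlirag and from 12.41 to 13.76 in diabetic, as log2. The median of 7 fibroblast markers was 10.42, 10.06 and 8.57 on the Hlirag arrays and 9.68, 8.63 and 9.85 on the diabetic arrays, and 6 of the 7 exceeded background on every array. Their summed signal ranged from 11.52 to 13.49 in Hlirag and from 12.57 to 13.19 in diabetic, as log2. The part of these cell types in the levels of Ptgs1, Ptgs2, Ptgis and Ephx1 was not tested. For Ptgds, the 5 mesothelial markers had medians of 6.86, 6.26 and 6.30 on the Hlirag arrays and of 5.80, 6.07 and 7.20 on the diabetic arrays. They were highest on diabetic replicate 3 and Hlirag replicate 1, as was Ptgds, and Upk3b, one of them, was among the 3 genes most like Ptgds (r = 0.95, with Sdk2 and Ift140 at 0.97). Their summed signal ranged from 8.62 to 9.06 in Hlirag and from 8.35 to 9.32 in diabetic, as log2, with 4 of the 5 above background on diabetic replicates 1 and 2 and all 5 on the other arrays. Their part was not tested.

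**Figure D3:**
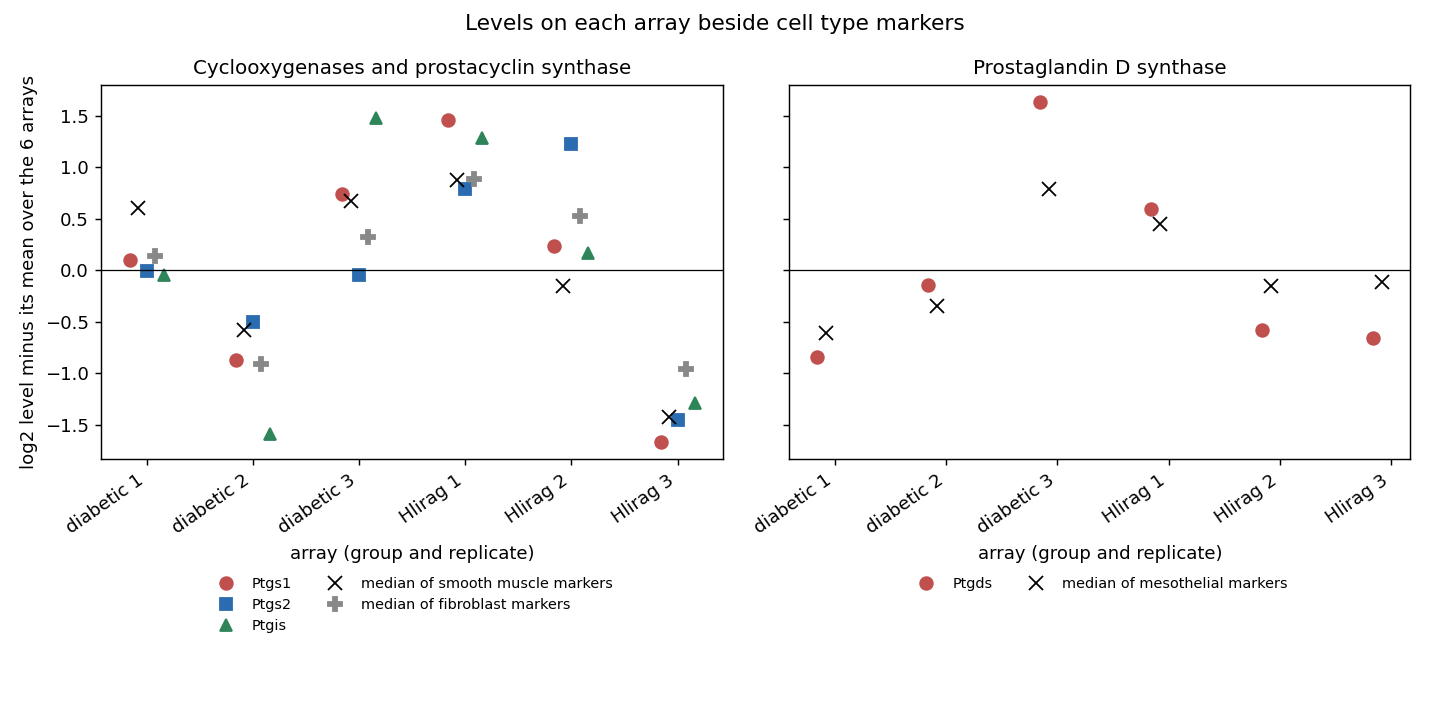
Log2 level minus its mean over the 6 arrays (vertical axis) on each array, for Ptgs1, Ptgs2 and Ptgis beside the medians of smooth muscle and fibroblast markers (left) and for Ptgds beside the median of mesothelial markers (right). All 5 symbols of the left panel lie below 0 on Hlirag replicate 3 and diabetic replicate 2, and both symbols of the right panel are highest on diabetic replicate 3.

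Fewer genes resembled the other members. The genes most like Ephx2 over the 6 arrays were Slc22a23, Ptprr and Tbc1d9 (r = 0.94, 0.90 and 0.90), and 2 genes had an r above 0.9 with it. Ptgs2 was most like Sh3bgrl1, Tomm22 and Dad1 (r = 0.99 each), Ephx1 like Phtf1, Commd4 and Poglut2 (r = 0.97, 0.96 and 0.96), and Ptges like Krtap4-6, Krt86 and Insig1 (r = 0.99, 0.96 and 0.96). Alox5 was most like Spry1, Kiz and Dact2 (r = 0.96, 0.93 and 0.92) and Alox15 like Krt34, Tent5c and Gp9 (r = 0.90, 0.88 and 0.87). Each r is a description over 6 arrays, taken as the highest among 6551 genes. The mean of Hpgd lay below the background level, outside the rule by which genes were named. Its highest r were those of Nr4a3 (0.99), Adgrg1 (0.98) and Irak2 (0.97), named after their values were seen, and 26 genes had an r above 0.9 with it.

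The sequences before the start sites are shown for Hpgd, the called gene that the RefSeq promoter table lists, and for the cyclooxygenase pair, whose genes serve constitutive and induced synthesis. The table held 7 of the 10 genes. Each sequence is the 250 bases before the annotated start in build GRCr8, 5′ to 3′ on the gene's strand, at chr16:39034832-39035081 (minus strand) for Hpgd, chr3:39981169-39981418 (plus strand) for Ptgs1 and chr13:64713813-64714062 (plus strand) for Ptgs2. Capitals mark matches to the searched motifs, on either strand.
Hpgd: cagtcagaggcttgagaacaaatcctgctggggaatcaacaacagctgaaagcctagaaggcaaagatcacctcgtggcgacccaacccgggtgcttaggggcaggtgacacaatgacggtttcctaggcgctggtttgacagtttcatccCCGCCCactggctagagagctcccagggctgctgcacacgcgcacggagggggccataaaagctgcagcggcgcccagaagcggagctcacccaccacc
Ptgs1: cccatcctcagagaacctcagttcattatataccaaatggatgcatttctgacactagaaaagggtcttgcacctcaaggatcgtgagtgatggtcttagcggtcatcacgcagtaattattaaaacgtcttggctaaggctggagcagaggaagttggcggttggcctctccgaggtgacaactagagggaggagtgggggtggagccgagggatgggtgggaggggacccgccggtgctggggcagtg
Ptgs2: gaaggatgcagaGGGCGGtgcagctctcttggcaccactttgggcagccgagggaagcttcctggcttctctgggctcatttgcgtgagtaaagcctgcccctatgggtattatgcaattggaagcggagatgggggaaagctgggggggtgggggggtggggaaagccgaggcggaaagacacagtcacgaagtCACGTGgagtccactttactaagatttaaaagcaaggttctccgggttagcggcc
The motifs searched were the nuclear receptor core site AGGTCA, its direct repeat with 1 base between the copies, which PPAR and RXR bind, the cAMP response element (TGAC joined to GTCA), the TATA box TATAAA, the GC box GGGCGG and the E-box CACGTG. The core site lies within the direct repeat. Of 33469 windows of this length, 14.06%, 0.05%, 1.59%, 12.93%, 30.47% and 5.59%, in that order, held a match. The Hpgd window had a GC box on the opposite strand, starting 99 bases before the start. The Ptgs2 window had a GC box starting 238 bases and an E-box starting 55 bases before the start. The Ptgs1 window held none of these letters. GC content was 60.0%, 54.4% and 57.2% for Hpgd, Ptgs1 and Ptgs2, against a median of 51.2% over all windows. A match is a description of the letters and not a binding site.

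Around the 10 enzymes, 55 other genes of the pathway were listed, and 2 of them met the criterion, 1 lower and 1 higher, against 3.78% of all genes in either direction. The median log2 fold change of the 55 was 0.05. The lower one was Cyp2j4, a P450 of the family that makes epoxy fatty acids. Its log2 levels were 6.17, 5.33 and 5.33 on the Hlirag arrays and 6.46, 6.57 and 6.68 on the diabetic arrays, with no overlap. The log2 fold change was -0.96 (SE 0.29, unadjusted p = 0.0108 and adjusted p = 0.780 by limma), and leaving out any 1 array kept it at the criterion, which it missed without diabetic replicates 1 and 2 (-1.07, unadjusted p = 0.0725 by limma). The other 12 of the 13 P450 genes did not meet the criterion, 10 of the 13 had means below the background level, and the list's median was -0.14. Among them Cyp2c23, a renal epoxygenase of the rat, differed by 0.92 (SE 0.49) on the log2 scale and Cyp4f4 by 0.50 (SE 0.24).

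The higher one was Pla2g10, a secreted phospholipase, whose means lay below the background level in both groups. Its log2 levels were 5.02, 5.16 and 6.08 on the Hlirag arrays and 4.63, 4.56 and 4.85 on the diabetic arrays, so that only Hlirag replicate 3 exceeded the level. The call (log2 fold change 0.74, SE 0.32, unadjusted p = 0.0486 and adjusted p = 0.780 by limma) was lost without Hlirag replicate 2 or 3 or any 1 diabetic array, and the log2 fold change was 0.41 without Hlirag replicate 3. None of the other 8 genes of arachidonate release met the criterion, and the list's median was -0.15; Pla2g12a, a secreted phospholipase, had -0.45 and Pnpla2, the triglyceride lipase of fat and heart, 0.30.

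No gene of the remaining lists met the criterion. Of the 7 other prostanoid synthases (median -0.07), Cbr1, a carbonyl reductase that acts on prostaglandin E, had a log2 fold change of -0.88 (SE 0.54) with a level of 8.62 on Hlirag replicate 1 and 6.36 on Hlirag replicate 3. Of the 5 genes of prostaglandin uptake, export and breakdown (median 0.16), Ptgr2, a prostaglandin reductase, had 0.63 (SE 0.42). Of the 8 prostanoid receptors (median 0.07), Ptger3, a prostaglandin E receptor, had -0.56 (SE 0.35).

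Of the 7 other lipoxygenase and leukotriene genes (median 0.15), 5 had means below the background level. All 4 leukotriene receptors had log2 fold changes above 0 (median 0.30), and the groups did not overlap for Ltb4r (0.47, SE 0.21) and Ltb4r2 (0.38, SE 0.26), both leukotriene B receptors, against 6.42% of all genes with Hlirag higher and no overlap. Their means lay within 0.5 of the background level. On the Hlirag arrays Ltb4r was at 5.59, 5.82 and 5.59 and Ltb4r2 at 5.73, 5.77 and 6.15. Olfactory receptor genes, taken as background, were at a median of 4.45 on Hlirag replicate 3, against 3.29 to 3.81 elsewhere. The part of background signal in the Ltb4r and Ltb4r2 differences was not tested.

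**Figure D4:**
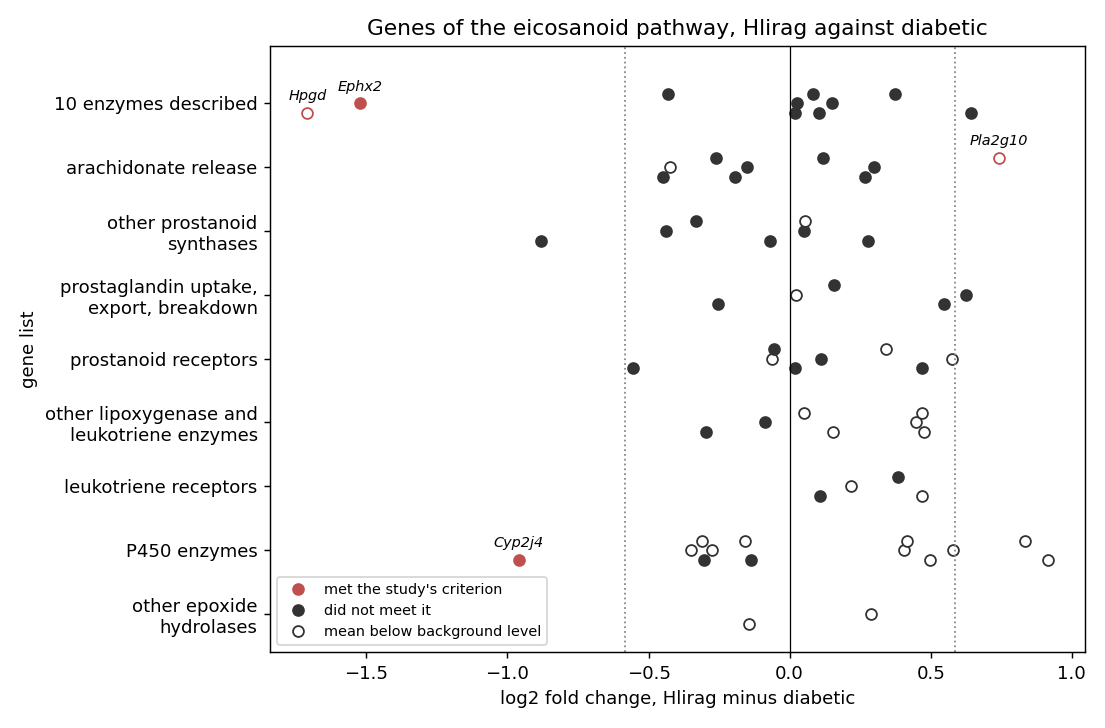
Log2 fold change, Hlirag minus diabetic (horizontal axis), of each gene of the pathway by list, red where the study's criterion was met, open where the mean over the 6 arrays lay below the background level, with dotted lines at a fold change of 1.5. Apart from Ephx2 and Hpgd, Cyp2j4 lies beyond the lower dotted line at the criterion and Pla2g10 beyond the upper one.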

How the data were processed

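The study extracted total RNA, which it describes as cardiac, and used 1 Rat Gene 2.0 ST array (Affymetrix) for each of 3 samples a group. The authors scanned the arrays and made the deposited log2 values with Expression Console; the summarisation, normalization and genome build are not given in the sources used here, and that the scale is log2 was inferred from the spread of values. Array medians over 36685 probe sets ran from 4.94 to 5.39, so the centring is unknown. Of the probe sets, 18511 had 1 gene symbol, 575 several and 17599 none, and the brightest single-symbol one stood for a gene. Gene numbers of 18394 were found in the RefSeq table of GRCr8, used for names.

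limma 3.58.1 (R 4.3.3; lmFit, eBayes, no covariate beside group) was fitted to all 18166 genes, with Benjamini-Hochberg adjustment, and tested on simulated data. The 10 genes, the pathway and marker lists and the alternatives were chosen with earlier results of these data known. The genes named are the 10, the pathway genes at the criterion with up to 3 of lowest p per list, and the 3 genes of highest r per enzyme, for r with an SD of at least 0.3 and means above background. Alternatives were quantile normalization, median centring, raising or removing dim values, an intensity trend, the methods' ANOVA, mean or single probe sets, a replicate block and left-out arrays. Arrays have no read depth, and their number limits the precision. Figures used matplotlib 3.10.9.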

Additional observations from a re-analysis of the deposited data

How the results depend on the processing

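Ephx2 and Hpgd were lower in Hlirag in each alternative that tested them. Leaving out arrays or raising dim values could not reverse this sign, since the groups of neither gene overlapped. The intensity trend, the methods' ANOVA and the replicate block alter the spread used and not the difference of means. Ephx2 and Hpgd had 1 probe set each, so the probe-set choices had no effect on their levels. None of these settings could therefore change their log2 fold changes. The number of the 10 enzymes at the criterion was 1 when dim values were raised to the background level (Ephx2), 1 with only genes above background tested (Hpgd was not among them), 2 to 3 with 1 array left out, and 2 in the other settings, which without diabetic replicates 1 and 2, with 1 diabetic array remaining, were Hpgd and Ptgds. The pathway count of 2 became 1 with quantile normalization, with raised values, with genes above background and by the methods' test, 4 with the replicate block, and 1 to 7 with 1 array left out, 7 without diabetic replicate 3. The 687 genes at the criterion became 181 with raised values, 448 with genes above background, 236 by the methods' test, 1117 with the replicate block, 286 with diabetic replicates 1 and 2 removed, and 226 (without Hlirag replicate 2) to 2018 (without Hlirag replicate 1) with 1 array left out. Some of these settings tested fewer genes or used fewer arrays, and the cause of the moves was not tested.

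Same-numbered arrays deviated from their group means with correlations of 0.32, 0.04 and 0.15, so the numbers were not taken to pair the arrays; with the replicate block 2 of the 10 enzymes met the criterion, as without it.

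With 1 array left out the log2 fold change ranged from -0.20 to 0.33 for Ephx1, -0.71 to 0.86 for Ptgs1, -0.15 to 1.19 for Ptgs2, -0.67 to 0.87 for Ptgis, -0.96 to 0.28 for Ptgds, -0.0011 to 0.27 for Alox5 and -0.35 to 0.26 for Alox15, each with a change of sign. For Ptges it ranged from 0.46 to 0.89, without a change of sign. Without diabetic replicates 1 and 2 it was -0.73 for Ptgs1, -1.43 for Ptgis and -0.35 for Alox15, opposite in sign to the values with all arrays. The cause was not tested. The adjusted p of Ephx2 ranged from 0.425 to 1 and that of Hpgd from 0.177 to 1 over the alternatives. No group has the 4 samples that a test for outlying arrays needs.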
